A study of Mus musculus with 4 samples.

Results

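The genes described here encode the Egr and Nr4a inducible transcription factors and the Nab cofactors of Egr proteins. They were taken by name as every probe set that the platform annotation assigns to Egr1, Egr2, Egr3, Egr4, Nab1, Nab2, Nr4a1, Nr4a2 or Nr4a3, which gave 9 genes and 13 probe sets out of 12393 genes and 22626 probe sets on the array. The rule uses names and no measured value. A mean MAS5 signal of 50 or more across all 4 arrays was reached by 11 of these probe sets, which belong to 8 of the genes. Both probe sets of Nr4a3 stayed below it.

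RNA of the dentate gyrus (DG) of C57Bl/6 mice was measured in 4 pools. By the study's methods, hippocampal slices were cut first, and the DG was taken from part of the slices. The effect of slicing on the signals of treated and control pools was not tested. The study's methods name male mice of either C57BL/6J or C57BL/6N, and the labels do not say which was used. The ECS pool came from mice given electroconvulsive stimulation in 11 sessions, at 4 sessions a week under isoflurane, and the sham pool from mice handled in the same way without shock. The fluoxetine pool came from mice that drank the selective serotonin reuptake inhibitor fluoxetine at 22 mg/kg/day, sweetened with saccharin, over 4 weeks, while the vehicle pool came from mice on water for 28 days. The labels of the ECS and sham pools give 6 h, whereas the study's methods give a day after the course of ECS, so the interval since the last stimulation is not settled for any ECS or sham value. Fluoxetine-treated mice had been chosen for a small frequency facilitation of the mossy fiber synapse, and RNA of several mice was put together before hybridization to 1 array per group. There is thus 1 value per group, no SD and no p-value can be given, and every ratio compares pools.

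Egr and Nr4a genes are immediate early genes, which neurons transcribe within minutes of strong synaptic activity from factors already present, mainly SRF with its TCF and MRTF partners, CREB and MEF2. EGR proteins are zinc finger activators that bind GC-rich sites, and NAB proteins bind to some of them, such as EGR1 and EGR2, and repress their activity. NR4A proteins are orphan nuclear receptors that act without a ligand and bind the NBRE site alone or some response elements together with RXR. In the dentate gyrus, Egr1 and Nr4a1 are common markers of recently active granule cells.

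The MAS5 signals had not been brought to a common level. The median signal past the filter was 219.3 on the ECS array, 236.4 on the sham array, 365.4 on the fluoxetine array and 335.0 on the vehicle array. The median log2 ratio over the 13422 probe sets past the filter was -0.10 for ECS over sham and 0.12 for fluoxetine over vehicle, and ratios are given as deposited unless called median-centred, which removes these shifts. The spread given with each gene is taken from the control pools alone. For 500 probe sets of similar signal, the log2 ratios of sham to vehicle were centred and their median absolute deviation, scaled to match a standard deviation, was taken, which includes any effect of the different handling of those pools. Of the granule cell markers, Calb1 had signals of 1398.6 and 3813.5 in the ECS and sham pools and 1353.2 and 5395.5 in the fluoxetine and vehicle pools, while Prox1, the fate determinant of these cells, was between 98.3 and 179.7 on all arrays, so markers of granule cells were detected on every array. In pooled tissue, fewer cells of a type and less RNA per cell cannot be told apart.

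**Figure D1:**
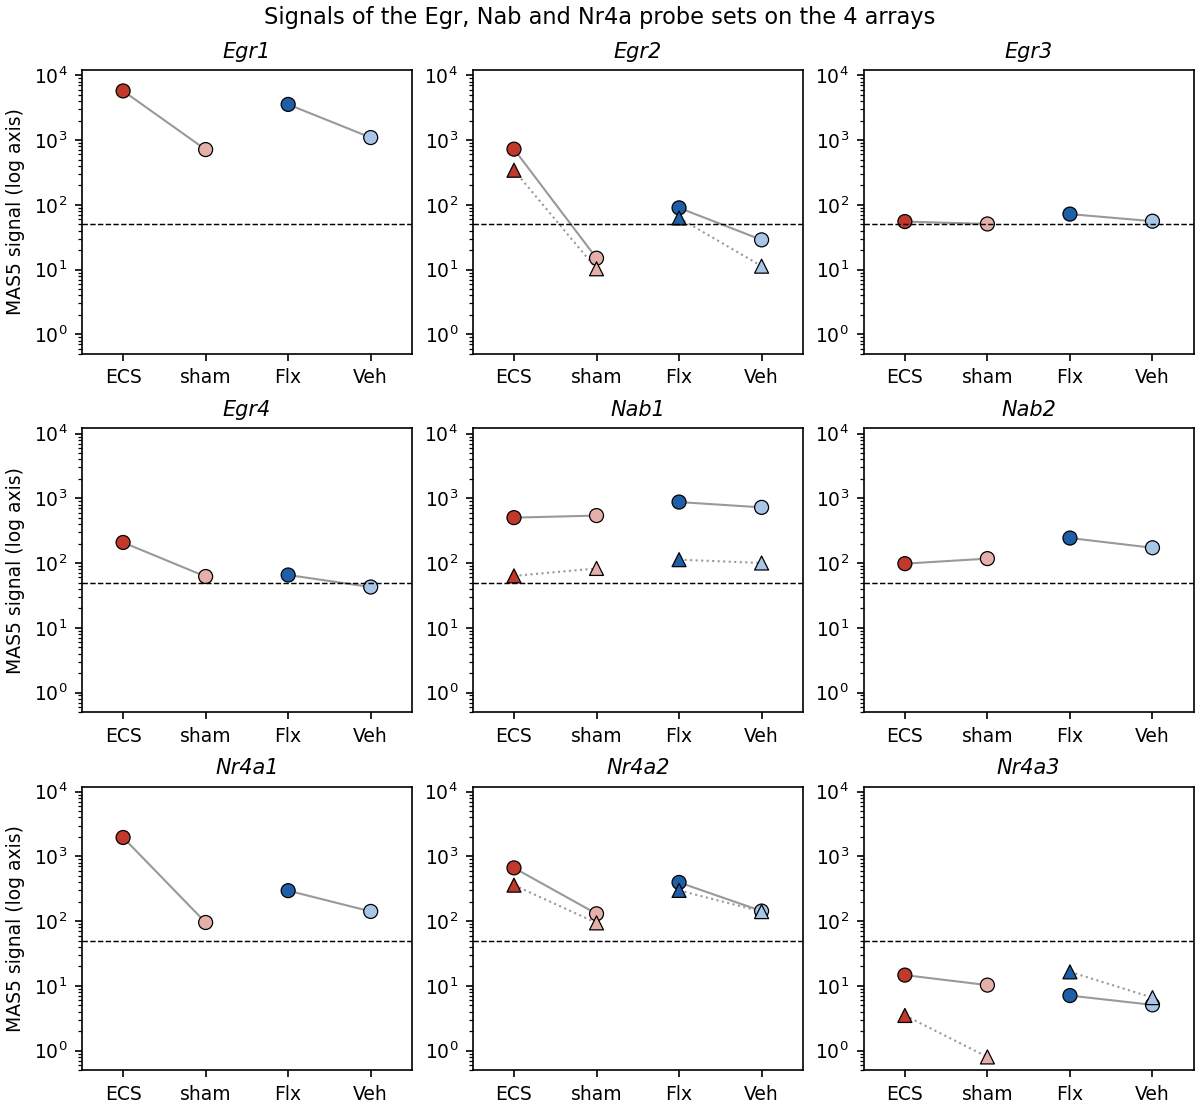
MAS5 signals (log axis) of the 13 probe sets of the 9 genes on the ECS, sham, fluoxetine (Flx) and vehicle (Veh) arrays, with circles for the brighter and triangles for the other probe set of a gene and a dashed line at a signal of 50. Lines join each treated pool to its own control. Egr1, Egr2, Egr4, Nr4a1 and Nr4a2 are higher in both treated pools, and all Nr4a3 signals lie under the dashed line.

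Among the Egr genes, Egr1, Egr2 and Egr4 were higher in the ECS pool than in the sham pool, and less so in the fluoxetine pool than in the vehicle pool, while Egr3 was near its controls in both. Egr1, the member most used as a marker of neuronal activity, had a signal of 5750.8 in the ECS pool and 714.6 in the sham pool. Its signal was 3558.6 in the fluoxetine pool and 1095.2 in the vehicle pool. Both treated pools thus stood well above both control pools. The log2 ratios were 3.01 with ECS and 1.70 with fluoxetine, or 8.05-fold and 3.25-fold, with a control spread of 0.14. Egr1 lies on chromosome 18 from 34861207 to 34864956 (GRCm38.p6).

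Egr2, which is also the master regulator of myelination in Schwann cells, had a signal of 725.4 in the ECS pool and 15.0 in the sham pool. It was 89.9 in the fluoxetine pool and 28.8 in the vehicle pool. Only the treated pools were above 50, and the size of its ratios is therefore uncertain. The log2 ratios as deposited were 5.60 and 1.64, and with signals below 50 set to 50 they were 3.86 with ECS and 0.85 with fluoxetine. When arrays were first median-centred and the floor then set, the fluoxetine ratio was 0.47, under 1.5-fold. The other probe set of Egr2 had signals of 342.8 and 10.3 in the ECS and sham pools, and 62.7 and 11.3 in the fluoxetine and vehicle pools. It gave log2 ratios of 5.06 and 2.47, or 2.78 and 0.33 with the floor of 50. The direction was the same in both probe sets, but the higher fluoxetine value rests on signals barely above 50 and was under 1.5-fold in the second probe set with the floor.

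Egr2 lies on chromosome 10 from 67534469 to 67542188. The promoter of Egr2 is shown because the gene had the highest ECS ratio of the 9 genes as deposited. RefSeq gives 5 starts for it, and the 250 bases before one of them, at chr10:67537619-67537868 (GRCm38.p6, plus strand), hold a CArG box, the site of SRF, 72 to 63 bases before the start. They also hold 2 matches to the short CRE, a reduced form of the CREB site, 111 to 107 and 55 to 51 bases before it. Capitals mark these matches, and the start follows the last base.
Egr2: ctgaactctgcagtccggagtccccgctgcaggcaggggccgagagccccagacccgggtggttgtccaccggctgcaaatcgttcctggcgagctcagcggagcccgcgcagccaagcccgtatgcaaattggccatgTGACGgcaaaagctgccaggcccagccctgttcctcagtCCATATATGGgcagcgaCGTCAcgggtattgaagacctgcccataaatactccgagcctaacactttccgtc
The CArG box was searched as CC, 6 bases of A or T, then GG, and the short CRE as TGACG, both on either strand. Of 32851 promoter stretches of the same length in the RefSeq table, 1.47% hold a CArG box, 17.8% a short CRE and 0.17% both. Of the other 4 Egr2 starts, 2 overlap this stretch and hold the same matches, 1 holds a different CArG box and 1 none.

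Egr4, a member of the family known from neurons and germ cells, had a signal of 207.8 in the ECS pool and 61.9 in the sham pool. It was 65.3 in the fluoxetine pool and 42.6 in the vehicle pool. Its ratios on the log2 scale were 1.75 (ECS) and 0.62 (fluoxetine), beside a control spread of 0.32. The ECS pool alone stood clear of the rest, since the fluoxetine signal was close to that of the sham pool and the control pools differed, sham over vehicle being 1.04 on the centred log2 scale. With signals below 50 set to 50 the fluoxetine ratio was 0.39, and after median-centring it was 0.49, both under 1.5-fold.

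Egr4 lies on chromosome 6 from 85511121 to 85513589. The bases before its start, at chr6:85513590-85513839 (GRCm38.p6, minus strand), are printed for comparison with those of Egr2. They have 2 short CRE matches, in capitals, 177 to 173 and 109 to 105 bases before the start, and no CArG box match.
Egr4: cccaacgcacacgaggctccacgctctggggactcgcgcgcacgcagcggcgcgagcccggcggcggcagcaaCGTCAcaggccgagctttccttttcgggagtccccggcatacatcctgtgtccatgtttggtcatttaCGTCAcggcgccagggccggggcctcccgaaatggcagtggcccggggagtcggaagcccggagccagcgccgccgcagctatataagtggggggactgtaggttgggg

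Egr3, whose product acts on many of the same sites as EGR1, had signals of 55.2 in the ECS pool and 50.7 in the sham pool, and 72.0 in the fluoxetine pool and 55.9 in the vehicle pool. All 4 values were just above 50. The log2 ratios of 0.12 and 0.37 were both below the control spread of 0.38, so Egr3 could not be set apart from its controls on these arrays.

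The Nab genes, whose products restrain EGR1 and EGR2, were below 1.5-fold in both comparisons. Nab1 had 502.5 in the ECS pool and 540.8 in the sham pool, and 874.5 in the fluoxetine pool and 723.8 in the vehicle pool. Its log2 ratios were -0.11 and 0.27, beside a control spread of 0.15. The other Nab1 probe set had 63.3 and 82.5 in the ECS and sham pools and 112.7 and 100.1 in the fluoxetine and vehicle pools, with ratios of -0.38 and 0.17. After median-centring, the brighter probe set stood at 646.8 in the ECS pool and 645.6 in the sham pool, a log2 ratio of 0.0027, so it did not differ from its control with ECS beyond the shift of the whole array. Nab2, which is itself induced by EGR proteins in other cells, had 97.8 in the ECS pool and 117.0 in the sham pool, and 243.2 in the fluoxetine pool and 172.1 in the vehicle pool. On the log2 scale the ratios of Nab2 were -0.26 (ECS) and 0.50 (fluoxetine), beside a control spread of 0.26, and after median-centring they were -0.15 and 0.37. In the ECS pool, where the Egr1 and Egr2 signals were highest, the centred ratios of the brighter Nab1 probe set and of Nab2 to the sham pool were thus within the control spread.

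Nab1 lies on chromosome 1 from 52455849 to 52500712, and Nab2 on chromosome 10 from 127660918 to 127666703. The bases before the Nab1 start are shown because they hold the letters that EGR proteins bind. At chr1:52500449-52500698 (GRCm38.p6, minus strand), 3 EGR site matches stand in capitals beside 1 short CRE match, 123 to 119 bases before the start. This stretch lies within the coordinates given for Nab1, so the start used is not the outer end of the gene.
Nab1: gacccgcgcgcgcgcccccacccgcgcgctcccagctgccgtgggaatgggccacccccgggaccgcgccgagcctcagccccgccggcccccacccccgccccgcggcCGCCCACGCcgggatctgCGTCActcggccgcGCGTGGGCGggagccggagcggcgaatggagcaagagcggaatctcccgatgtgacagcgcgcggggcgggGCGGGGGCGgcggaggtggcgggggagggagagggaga
The EGR site was searched as GCGTGGGCG or GCGGGGGCG on both strands, and 3.06% of the promoter stretches hold one. The stretch before the Nab2 start held no match to any of the motifs searched.

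**Figure D2:**
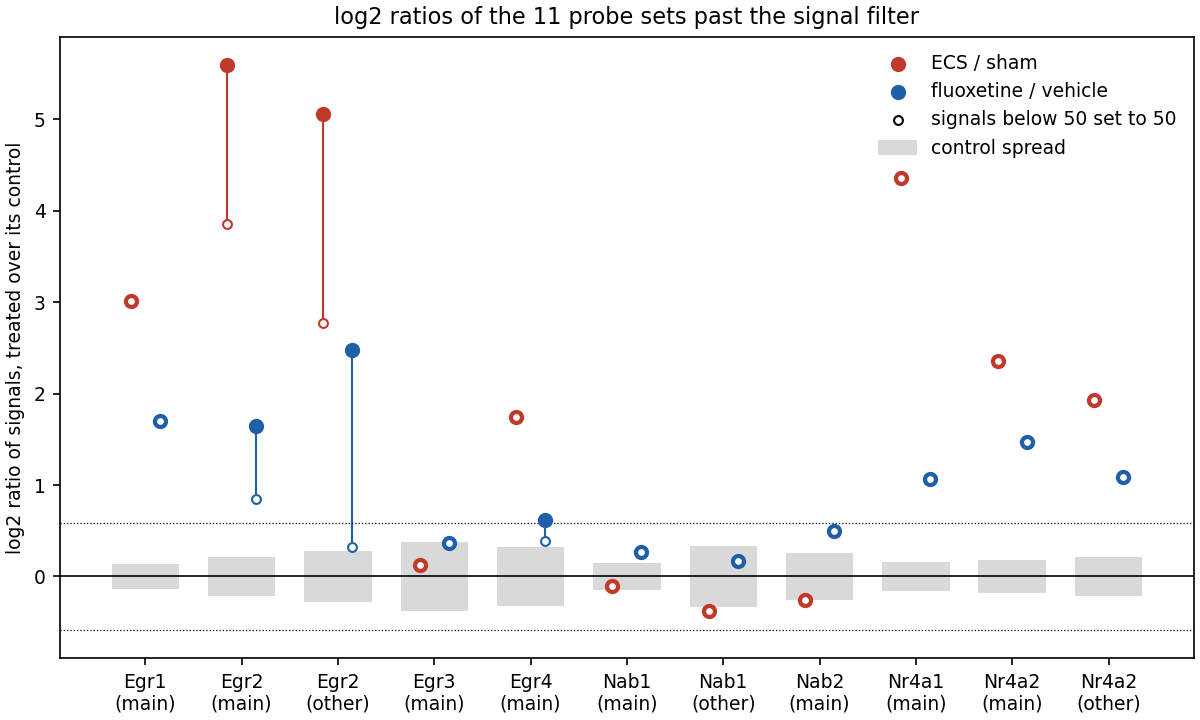
Log2 ratios of ECS to sham (red) and of fluoxetine to vehicle (blue) for the 11 probe sets past the signal filter, as deposited (filled) and with signals below 50 set to 50 (open). Grey boxes show the control spread around 0 and dotted lines 1.5-fold. The floor brings the ECS ratio of Egr2 down to 3.86, against 5.60 as deposited, and leaves Egr1, Nr4a1 and Nr4a2 where they were.

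Of the Nr4a genes, Nr4a1 and Nr4a2 were higher in both treated pools. Nr4a1, also known as Nur77, had a signal of 1962.9 in the ECS pool and 95.5 in the sham pool. It had 296.2 in the fluoxetine pool and 141.5 in the vehicle pool. All 4 signals were above 50, and both treated pools were above both control pools. The log2 ratios were 4.36 and 1.07, or 20.6-fold and 2.09-fold, beside a control spread of 0.16. With signals below 50 set to 50, the ECS ratio of Nr4a1 ranked 2 among the 13422 probe sets past the filter, before Egr2 at 4 and Egr1 at 7. Its fluoxetine ratio ranked 277, against 82 for Egr1 and 125 for the brighter probe set of Nr4a2.

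Nr4a1 lies on chromosome 15 from 101253902 to 101274795. Its promoter is shown because this gene had the highest ECS ratio of those with no signal below 50. At chr15:101266596-101266845 (GRCm38.p6, plus strand), 4 short CRE matches and 1 EGR site match stand in capitals, the EGR site 60 to 52 bases before the start. This stretch lies within the coordinates given for Nr4a1, so the start used is not the outer end of the gene.
Nr4a1: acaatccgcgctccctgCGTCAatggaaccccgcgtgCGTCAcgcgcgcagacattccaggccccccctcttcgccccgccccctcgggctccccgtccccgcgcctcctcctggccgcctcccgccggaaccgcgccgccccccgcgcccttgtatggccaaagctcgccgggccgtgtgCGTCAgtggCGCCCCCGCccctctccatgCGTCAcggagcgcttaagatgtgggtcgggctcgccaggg
Only 0.688% of the promoter stretches hold 3 or more short CRE matches.

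Nr4a2, also called Nurr1 and known for its part in dopamine neurons, had 666.1 in the ECS pool and 130.2 in the sham pool. It had 397.0 in the fluoxetine pool and 143.3 in the vehicle pool. The log2 ratios were 2.36 and 1.47, with 0.18 for the control spread. The second probe set had 360.4 and 94.2 in the ECS and sham pools and 298.9 and 140.6 in the fluoxetine and vehicle pools, with log2 ratios of 1.94 and 1.09. Both probe sets were thus higher in each treated pool than in either control pool. Nr4a3, or NOR-1, had 14.7 in the ECS pool and 10.3 in the sham pool, and 7.1 in the fluoxetine pool and 5.1 in the vehicle pool. Its other probe set was between 0.8 and 16.5. No ratio is drawn from signals this low, which leave Nr4a3 unmeasured rather than unchanged.

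Nr4a2 lies on chromosome 2 from 57106830 to 57124003 and Nr4a3 on chromosome 4 from 48045078 to 48086447. The stretches before their starts, at chr2:57124004-57124253 (minus strand) and chr4:48045055-48045304 (plus strand), are set under each other because each holds 4 short CRE matches, as does that of Nr4a1, although Nr4a3 was not measurable here.
Nr4a2: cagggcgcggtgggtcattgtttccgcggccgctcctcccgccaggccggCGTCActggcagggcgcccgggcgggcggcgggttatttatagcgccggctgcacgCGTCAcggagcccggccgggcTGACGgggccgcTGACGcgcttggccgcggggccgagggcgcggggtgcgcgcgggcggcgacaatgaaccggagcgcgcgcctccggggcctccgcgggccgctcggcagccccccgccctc
Nr4a3: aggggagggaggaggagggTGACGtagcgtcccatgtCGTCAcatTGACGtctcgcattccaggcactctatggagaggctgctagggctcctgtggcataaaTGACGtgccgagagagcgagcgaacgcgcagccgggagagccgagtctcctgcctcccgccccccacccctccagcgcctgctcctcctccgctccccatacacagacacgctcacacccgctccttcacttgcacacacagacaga
The full CRE, TGACGTCA, was found in none of the stretches of the 7 genes that matched the RefSeq promoter table, and in 1.55% of all stretches. The NBRE, AAAGGTCA, was also found in none of them, and in 1.34% of all. Egr1 and Egr3 are named here without a promoter. A match is a match of letters in this window, and nothing was measured on these sites.

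**Figure D3:**
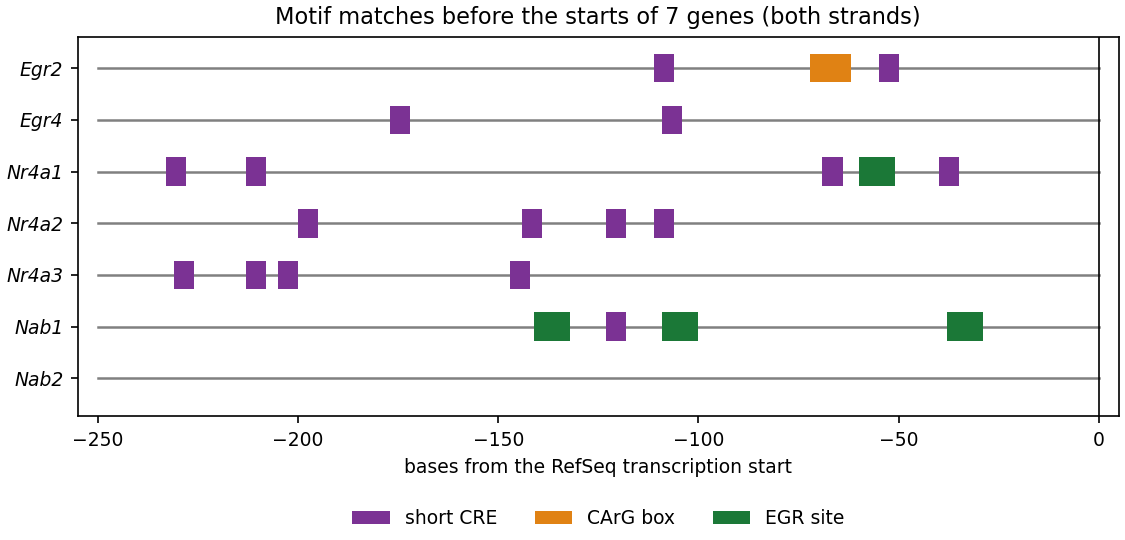
Matches to the short CRE, the CArG box and the EGR site on either strand in the 250 bases before the RefSeq starts of 7 genes, drawn to scale by distance from the start, with 1 of 5 starts shown for Egr2. Nr4a1, Nr4a2 and Nr4a3 have 4 short CRE matches each, Nab1 has 3 EGR site matches and Nab2 has none of the motifs.

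Taking the brightest probe set of each gene, 5 of the 8 genes past the filter, Egr1, Egr2, Egr4, Nr4a1 and Nr4a2, were at least 1.5-fold higher with ECS, whereas 3.84% of all 7935 genes past the filter were. The same 5 were at least 1.5-fold higher with fluoxetine, against 8.49% of all genes, and so in both comparisons, against 2.79%. None of the 8 was 1.5-fold lower, where the share over all genes was 6.47% with ECS and 3.26% with fluoxetine. The median log2 ratio of the 8 genes was 2.05 with ECS and 0.84 with fluoxetine, beside -0.10 and 0.12 over all genes. Egr2 reached the signal filter only through the ECS pool, since its mean over the other 3 arrays was 44.6 (28.1 for its second probe set), and a gene that passes in this way has to differ. Without it, 4 of 7 genes were higher in the ECS comparison, and 4 in the fluoxetine comparison, with medians of 1.75 and 0.62. Of all 8, after median-centring, 5 were higher with ECS (5.34% of all genes) and 4, without Egr4, with fluoxetine (5.82%) and in both (3.04%). With signals below 50 set to 50, the counts were likewise 5 (3.21%) and 4 (8.37%).

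Egr1, Egr2, Egr4, Nr4a1 and Nr4a2 had a larger ratio with ECS than with fluoxetine, each by more than 1.5-fold. The difference of the log2 ratios, ECS minus fluoxetine, was 3.95 for Egr2, 3.30 for Nr4a1, 1.31 for Egr1, 1.13 for Egr4 and 0.88 for Nr4a2. Of all genes, 1.76% had such a difference of at least 1.5-fold toward ECS as deposited and 4.44% after median-centring, which took the 5 differences to between 1.12 and 4.19. For Egr2 the difference was 3.01 with the floor of 50. Egr2 reached the signal filter only through the ECS pool, so part of its difference toward ECS was built in by the filter. The fold of Nr4a1 with ECS was 9.82 times its fold with fluoxetine, and that of Nr4a2 only 1.85 times, although both belong to 1 family. Nab2 went the other way, with -0.76, and 11.7% of all genes had a difference of at least 1.5-fold toward fluoxetine. After median-centring that of Nab2 was -0.52, below 1.5-fold, and the share of all genes was 4.44%. With 1 array per group the difference between the treatments has no test.

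The levels themselves, on median-centred arrays, differed in their order over the pools. Egr1, Egr2 and Nr4a1 were highest in the ECS pool, then in the fluoxetine pool, and lowest in the control pools. For Egr1 the median-centred signals were 7402 with ECS, 2749 with fluoxetine, 923 in the vehicle pool and 853 in the sham pool, and the control pools differed by less than the control spread. Nr4a1 stood at 2526 with ECS, 229 with fluoxetine, 119 in the vehicle pool and 114 in the sham pool, where the last pair also lay within the spread. The brighter Nr4a2 probe set had 857, 307, 155 and 121 in the ECS, fluoxetine, sham and vehicle pools, with each step larger than the spread of 0.18. The other had 463.9, 230.9, 112.5 and 118.4 in the same pools. Its control pools stood in the other order and within its spread of 0.21, so the order of the Nr4a2 control pools is not settled. Egr4 differed in that its sham pool, at 73.9, was above the fluoxetine pool, at 50.5, and the vehicle pool, at 35.9, with the ECS pool at 267.5. Nab2 was highest in the fluoxetine pool, at 187.9, and the other pools, from 125.9 to 145.0, lay within the spread of their neighbours. For Egr3 and Nab1 no step between neighbouring pools exceeded the spread.

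The genes nearest to each member in the pair of log2 ratios, with signals below 50 set to 50, were taken as the 3 at the smallest Euclidean distance over the 7935 genes, which describes 2 ratios from 4 arrays. Egr1 was nearest to Fosb, an AP-1 component, with ratios of 2.93 and 1.37 at a distance of 0.34, but 3.16 as deposited, since both control signals of Fosb were below 50. Next came Ptgs2, the inducible cyclooxygenase, at 0.40 with and without the floor, and then Nr4a2. Egr2 and Nr4a1 were nearest to each other, at a distance of 0.55 that depends on the floor, since it was 1.36 as deposited, and Nr4a1 was next nearest to Fos, which had 5.01 and 1.35. Egr4 lay nearest to Rasl11b, a small GTPase gene, at 0.20, Nfil3, a transcription repressor, at 0.21, and Gadd45g at 0.37. Nr4a2 lay nearest to Ephb6, an Eph receptor gene, at 0.38, Gpnmb at 0.45 and Inhba, the activin subunit gene, at 0.52, all of which had a smaller ECS ratio and a larger fluoxetine ratio than Nr4a2.

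**Figure D4:**
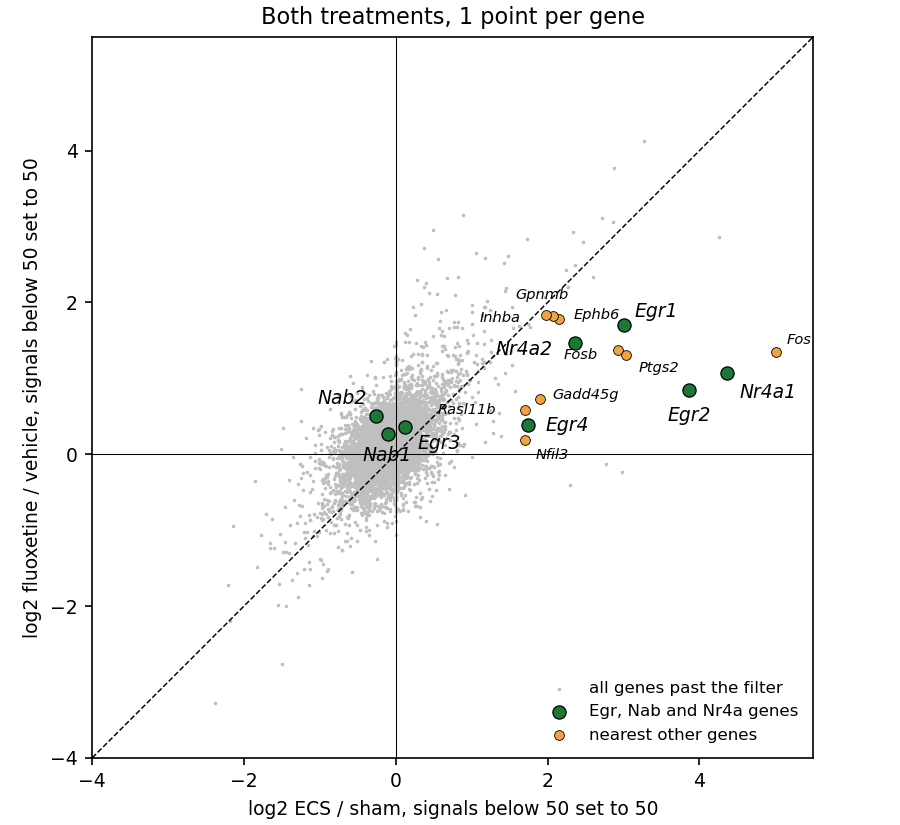
Log2 ratio of fluoxetine to vehicle against that of ECS to sham, with signals below 50 set to 50, for 7935 genes (grey), the Egr, Nab and Nr4a genes (green) and the genes nearest to them (orange). The dashed line marks equal ratios. Egr2 (3.86 and 0.85) and Nr4a1 (4.36 and 1.07) lie far to the right of it, while Egr3, Nab1 and Nab2 lie in the grey cloud.

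Genes of the factors that act upstream had much smaller ratios. Of 12 measured genes of the SRF, TCF, MRTF, CREB and MEF2 regulators, none was 1.5-fold higher or lower in either comparison. Over all genes, 3.84% were higher and 6.47% lower with ECS, and 8.49% and 3.26% with fluoxetine. At shares this small, none among 12 does not set the list apart from other genes. Its median log2 ratios were -0.01 with ECS and 0.19 with fluoxetine. Srf, the factor that binds the CArG box, had 361.3 in the ECS pool and 366.8 in the sham pool, and 505.4 in the fluoxetine pool and 498.0 in the vehicle pool. Crem, which encodes the CREB relative with the inducible repressor ICER, had 0.36 and 0.49, Elk3, a TCF, 0.36 and 0.38, and the CREB coactivator gene Crtc3 -0.39 and 0.43. Crtc2, another coactivator gene, had 0.36 with fluoxetine and was below 50 in the ECS and sham pools. Of 5 genes of the ERK path, 2 were higher with fluoxetine (8.49% of all genes) and 1 after median-centring (5.82%), and none was higher with ECS (3.84%). Grb2, the adaptor that links growth factor receptors to RAS, had 0.35 (ECS) and 1.41 (fluoxetine) on the log2 scale. Rps6ka3, a kinase of CREB, had -0.15 and 0.62, but 0.49 with fluoxetine after median-centring. Map2k1, which activates ERK, had -0.23 and -0.15, and Braf -0.27 and -0.09. The RXR partners Rxra and Rxrb had -0.45 and -0.49, and 0.16 and 0.37, all below 1.5-fold. After median-centring only Rxra passed 1.5-fold, in the lower direction with fluoxetine, at -0.62. The share of all genes lower with fluoxetine was not taken after median-centring. Srf was named after its values were seen.

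Genes known elsewhere as targets of these factors mostly had small ratios with ECS, while several were higher with fluoxetine. Among 9 measured genes described as EGR targets, Arc, which acts at synapses to remove AMPA receptors, had 1387.9 in the ECS pool and 72.5 in the sham pool, and 909.0 in the fluoxetine pool and 124.6 in the vehicle pool, or log2 ratios of 4.26 and 2.87. It was the only gene of this list that was higher with both, beside 2.79% of all genes, and the only one higher with ECS (3.84%). With fluoxetine 3 of the 9 were higher, Arc, Ache and Pdgfb, beside 8.49% of all genes. Ache, the acetylcholinesterase, had 0.20 and 0.90, and the growth factor gene Pdgfb 0.04 and 0.73, whereas Pdgfa had -0.76 and -0.26 and was the only one 1.5-fold lower with ECS (6.47% of all genes). The median of the 9 was 0.04 (ECS) and 0.33 (fluoxetine). Of 4 measured genes described as NR4A targets, Bdnf was higher with both (2.79% of all genes), at 1.77 and 1.68, and the peptide gene Vip had 0.36 and 0.93. These 2 were the ones higher with fluoxetine (8.49% of all genes). Pomc had 0.27 and -0.10, and Eno3 had -0.41 and -0.44. The Pomc and Eno3 signals were between 37.5 and 83.3. Nr4a1 thus had a far larger ratio with ECS than with fluoxetine. So had Egr2, which reached the signal filter only through the ECS pool. Bdnf had nearly equal ratios as deposited. After median-centring they were 1.88 (ECS) and 1.56 (fluoxetine), beside a control spread of 0.13.

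Of 15 other measured inducible transcription factors, 8 were higher with ECS and 6 with fluoxetine, 4 with both, beside 3.84%, 8.49% and 2.79% of all genes. Jun was the only one lower with fluoxetine, beside 3.26% of all genes. With signals below 50 set to 50 the counts of higher genes were 7, 5 and 3, without Myc with ECS and Atf3 with fluoxetine. Myc and Atf3 were named here after their values were seen. Their median was 0.69 with ECS and 0.49 with fluoxetine, below the 2.05 and 0.84 of the Egr, Nab and Nr4a genes, though these medians rest on 15 and 8 genes and were not tested. Fos had 3808.8 in the ECS pool and 118.4 in the sham pool, and 502.1 in the fluoxetine pool and 197.5 in the vehicle pool. Fosb, Atf3 and Batf3 had signals below 50 in the sham pool, and with the floor their ratios were 2.93 and 1.37, 1.36 and 0.55, and 1.42 and 2.52. As deposited, the ratios with ECS and fluoxetine were 3.02 and 3.58 for Atf3 and 3.45 and 2.52 for Batf3, so for both genes the order of the treatments turned with the floor and is not settled. Atf3, counted as higher with both as deposited, reached the signal filter only through the ECS pool, at 128.6. Its signals were 15.9, 73.0 and 6.1 in the sham, fluoxetine and vehicle pools, and a gene that passes in this way has to differ.

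**Figure D5:**
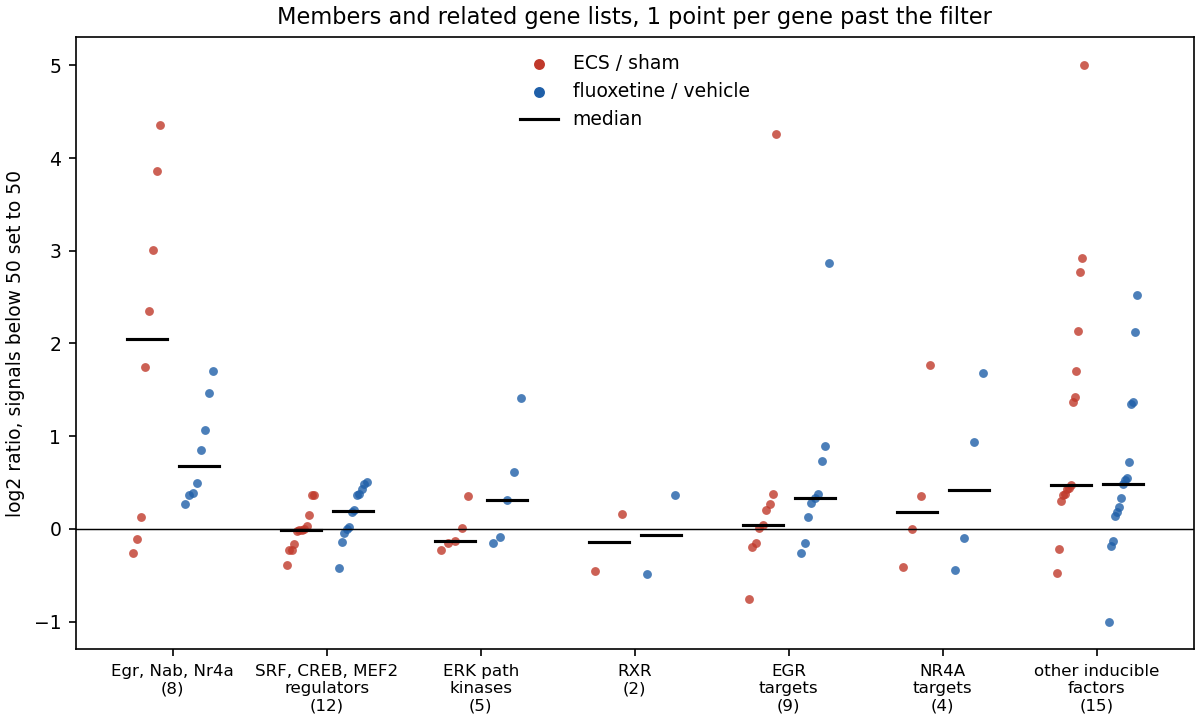
Log2 ratios of the measured genes of 7 groups with ECS (red) and fluoxetine (blue), with signals below 50 set to 50, the number of genes in parentheses and the median as a black bar. The Egr, Nab and Nr4a genes have medians of 2.05 and 0.67 on this scale, and the SRF, CREB and MEF2 regulators all lie within 1.5-fold with both treatments.

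Markers of other cells of the region were examined beside these ratios. Over all genes past the filter, 3.84% were at least 1.5-fold higher and 6.47% lower with ECS, and 8.49% and 3.26% with fluoxetine. The summed signal of 6 astrocyte markers was 6691 in the ECS pool and 6726 in the sham pool, and 13080 in the fluoxetine pool and 10320 in the vehicle pool, and its members differed in direction. Gfap was at least 1.5-fold higher with both treatments and Aqp4 with fluoxetine, while Slc1a3 was at least 1.5-fold lower with ECS. That of 6 microglia markers was 2636 and 2916, and 5105 and 3934. Oligodendrocyte, endothelial and interneuron lists differed between treated and control pools by 0.01 to 0.33 on the log2 scale of their sums. The interneuron sum follows Gad1, its brightest marker. Within that list Gad2 was at least 1.5-fold higher with both treatments and Vip with fluoxetine, and none was 1.5-fold lower. The sum of 4 markers of pyramidal cells (CA1 and CA3) was above its control by 0.45 (ECS) and 0.48 (fluoxetine) on the log2 scale. Bok, the brightest, was at least 1.5-fold higher with both treatments. Pou3f1 was at least 1.5-fold lower with both, though only its vehicle signal was above 50. Wfs1 was below and Ccn3 above its control with both, each by less than 1.5-fold. The median log2 ratio of the 4 was -0.06 with ECS and 0.17 with fluoxetine. Of 4 choroid plexus markers on the array, 3 were under the filter, and Ttr, the defining one, lay between 15.2 and 18.6. The part of these cells in the ratios of the Egr and Nr4a genes was not tested. The granule cell list was lower in both treated pools, with sums of 3314 and 7176 in the ECS and sham pools and 3496 and 10580 in the fluoxetine and vehicle pools. Of its 5 markers, Calb1, Tdo2, Dsp and Lct (4 of 5) were at least 1.5-fold lower with each treatment. The shares over all genes were 6.47% with ECS and 3.26% with fluoxetine. Egr1, Egr2, Nr4a1 and Nr4a2 were thus higher in the pools where these markers were lower, and the relation between them was not tested.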

How the data were processed

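By the study's methods, the dentate gyrus was dissected from hippocampal slices. Its total RNA was pooled by group, amplified and hybridized to Mouse Genome 430A 2.0 arrays, 1 array per group. The deposited values are linear signal intensities, which the authors computed with the MAS5 statistical algorithm, and the array medians show no scaling to a common level. No genome build is given for the array values. No column belonged to another study (0 columns of no sample).

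Of 22690 probe sets, 64 controls were left out. The platform annotation gave 20380 probe sets 1 gene name, 691 several and 1555 none, and only those with 1 name were assigned to genes. Log2 ratios were taken from the values as deposited, and probe sets with a mean signal under 50 were left out. A gene is represented by its brightest probe set, and higher or lower means at least 1.5-fold. With 1 pooled array per group no test could be run, and the number of arrays limits the precision. Alternatives set signals below 50 to 50, centred arrays on their medians, applied quantile normalization, added a pseudocount of 16, changed the filter, averaged probe sets, or exchanged the control arrays.

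The named genes are the 9 genes, the 3 nearest genes to each that was 1.5-fold changed, and up to 4 genes of each of 6 pathway lists with the largest mean absolute log2 ratio, beside 8 lists of cell markers. Srf, Jun and the single marker genes given were named outside this rule, after their values were seen. The genes and lists were chosen with earlier results of these data known. Coordinates, and the 250 bases before each start, come from RefSeq tables of GRCm38.p6, and 7 of the 9 genes matched the promoter table. A start in the promoter table need not be the outer end of the gene. The stretches of Egr2, Nab1 and Nr4a1 lie within the gene coordinates given, and that of Nr4a3 does in part. The calculations used Python 3.11.15, numpy 2.4.6 and pandas 2.3.3, drew plots with matplotlib 3.10.9, and were tested on simulated data.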

Additional observations from a re-analysis of the deposited data

Results flagged for a closer look

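As deposited, Nab1 and Nab2 had ratios of opposite direction in the 2 comparisons, below the control with ECS and above it with fluoxetine, as had 36.4% of all genes past the filter (15.3% after median-centring). The difference of the log2 ratios, ECS minus fluoxetine, was -0.38 for Nab1 and -0.76 for Nab2. These differences were not tested, since each group had 1 array. Over the alternatives it lay between -0.47 and 0.02 for Nab1, and between -0.76 and -0.52 for Nab2. For Nab1 the opposite direction was lost after median-centring, where its ECS ratio was 0.0027, and with exchanged controls, where it was 0.085. For Nab2 the centred ratios were -0.15 and 0.37.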

How the results depend on the processing

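The number of genes at least 1.5-fold higher with fluoxetine was 5 as deposited. It was 3 when arrays were median-centred and signals below 50 then set to 50 (without Egr2 and Egr4). At a size of 1.2-fold, as deposited, it was 8. No share over all genes was taken at either of these settings, so neither count is set against a background. The count at 1.2-fold includes the shift of the fluoxetine comparison. With fluoxetine, Nab1 had 0.27 as deposited and 0.15 after median-centring, and Egr3 0.37 and 0.24. The median log2 ratio over the genes with ECS, 2.05 as deposited, was 1.75 without a filter and also without Egr2, 3.01 with a mean signal of at least 200 and 2.86 with the control arrays exchanged. With fluoxetine, 0.84 as deposited, it was 0.42 with centring and the floor, 0.62 without a filter and also without Egr2, and 1.47 with a mean signal of at least 200. The median of ECS minus fluoxetine, 1.01 as deposited, was 1.24 with centring, 1.33 with centring and the floor, 1.29 with quantile normalization, 1.31 with a mean signal of at least 200 and 1.58 with exchanged controls. Filters change which genes enter these medians, and the cause of the other shifts was not tested. Egr4 with fluoxetine reversed with exchanged controls, at -0.55 against 0.62 as deposited. Of 98 single-gene values from genes that were at least 1.5-fold higher as deposited, 97 were still higher under the alternatives and 91 by at least 1.5-fold. A changed filter cannot move the ratio of a single gene, nor can averaging for a gene with 1 probe set past the filter. Part of these 2 counts was therefore fixed in advance, and they do not measure robustness. Signals near 50 limit Egr2, Egr3 and Egr4 most. Leaving out Egr2 was chosen after seeing the data. No paired analysis was possible because each group had 1 array.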
